A study of Mus musculus with 5 samples.

Results

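The genes that encode the proteins of the cytosolic ribosome were followed in mouse retinas after optic nerve crush (ONC), an injury in which the optic nerve is pinched behind the eye and the axons of retinal ganglion cells are cut off. Genes were taken by symbol, as Rps or Rpl followed by a number, together with Rplp0, Rplp1, Rplp2 and Rpsa. This gave 83 of the 25655 genes in the table, 32 of the small subunit and 51 of the large subunit. All retinas came from wildtype C57BL/6 mice of 8 to 10 weeks and were injured, and the tissue was taken 7 days after ONC. A group of 3 retinas (DMSO replicates 1, 2 and 3) received the solvent dimethyl sulfoxide, and a group of 2 retinas (Sorbinil replicates 1 and 3) received Sorbinil, an inhibitor of aldose reductase, at 10 mg/kg, both by daily intraperitoneal injection from the day before the crush. No uninjured retina was analysed here, so the comparison is of drug against solvent in injured tissue. The measurement was total RNA sequencing of whole retina, and each value is a count of reads per gene.

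A cytosolic ribosome is built from a small subunit that reads the messenger RNA and a large subunit that forms the peptide bond. Each subunit carries ribosomal RNA and a fixed set of proteins, most of them present once per particle. Nearly all vertebrate ribosomal protein messenger RNAs begin with a 5′ terminal oligopyrimidine (TOP) tract, a C followed by a run of C and T bases, through which the kinase complex mTORC1 and the RNA-binding protein Larp1 control their translation. Ribosomal protein genes have few tissue-specific forms, they are highly expressed in almost every cell, and in mammals most of them have many processed pseudogenes.

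The TOP tract is the sequence that these genes are known to share, and windows of 30 bases around the annotated start of transcription are shown for 4 genes that hold it and for 1 that does not. Sequences are from RefSeq promoters of build GRCm38.p6, in lower case with the tract in capitals, and their positions are those of the exact match in GRCm39.
Rps6: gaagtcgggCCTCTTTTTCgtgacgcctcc
Rps27: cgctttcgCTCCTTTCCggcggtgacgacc
Rps18: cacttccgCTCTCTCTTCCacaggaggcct
Rpl38: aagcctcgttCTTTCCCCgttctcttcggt
Rplp0: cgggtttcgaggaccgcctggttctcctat
The windows lie at chr4:86775585-86775614 on the minus strand for Rps6, at chr3:90120936-90120965 on the minus strand for Rps27, at chr17:34174620-34174649 on the minus strand for Rps18, at chr11:114559396-114559425 on the plus strand for Rpl38 and at chr5:115697516-115697545 on the plus strand for Rplp0. Each spans the last bases of the promoter and the first bases of the first exon. RefSeq starts can be a few bases away from the start a cell uses, so a window without the letters describes only the annotated start.

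Of the 63 members with a RefSeq promoter, 13 (20.6%) had a C followed by at least 4 C or T bases exactly at the annotated start, against 2.67% of 17492 protein-coding genes. Those 13 were Rps6, Rps10, Rps15a, Rps18, Rps21, Rps27, Rpl14, Rpl15, Rpl28, Rpl35, Rpl35a, Rpl38 and Rplp2. Allowing the tract to begin within 5 bases of the start gave 29 members (46.0%), against 21.5% of all genes. The letters CCGGAAG, a core that ETS factors recognise, occurred on either strand of the window from 250 bases before to 50 bases after the start in 26 members (41.3%), against 12.9% of all genes. The letters AAGATGG, a core of YY1 sites, occurred on either strand in 10 members (15.9%), against 7.18%. A TATAAA box in the 50 bases before the start was found in 1 member (1.59%), against 3.81%. These matches describe letters, not bound sites.

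In the GRCm39 annotation (GENCODE vM39), the 83 genes lay on 19 chromosomes, with 14 on chromosome 7 and 4 on the X chromosome (Rpl10, Rpl36a, Rpl39 and Rps4x). Their coding sequences ran from 75 bases (Rpl41) to 1257 bases (Rpl4), with a median of 454.5 over the genes tested against 1362 over all genes tested. Small nucleolar RNA genes lay within 30 members on the same strand, 59 in all, and 50 members overlapped a gene on the opposite strand. The annotation named 320 pseudogenes of 63 members. How reads shared with such copies were counted, and whether strand was used, is not given in the sources used here.

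Depth was high for these genes. Total counts per retina were between 56096541 and 90288552, and the 83 genes together took between 905955 and 1238671 counts. Of the 83 genes, 80 passed the filter on low counts. The other 3 are paralogs known mainly from testis or muscle. Rpl10l had 0 counts in all 5 retinas, which is a limit of 3 counts in 19547 for its share of the Rpl10 and Rpl10l pair, or 0.0153% (counting error only). Rpl39l had between 0 and 9 counts per retina and Rpl3l between 0 and 6.

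Sorbinil replicate 1 stood apart from the other 4 retinas across the transcriptome. Over all 14992 genes tested, the standard deviation of the log2 difference from the DMSO mean was 0.75 in that retina and 0.35 in Sorbinil replicate 3. It was between 0.21 and 0.29 in the DMSO retinas, which are part of that mean and so lie closer to it. The TMM scaling factor of Sorbinil replicate 1 was 0.854, against 0.991 to 1.07. Markers of rods, the most numerous retinal neurons, were abundant in every retina, as the tissue label implies. They summed to 146378 CPM (counts per 1e+06 counts, after scaling) there, against 88795 to 105674 CPM in DMSO and 75823 CPM in Sorbinil replicate 3. Markers of Müller glia and astrocytes summed to 2938 CPM there, against 7188 to 8661 CPM in DMSO and 7496 CPM in Sorbinil replicate 3. DMSO replicate 3 and Sorbinil replicate 3 carried RNA of lens markers (crystallins, Bfsp1 and Mip), at a summed 52.6 and 33.0 CPM against 0.724 to 2.45 CPM in the other 3 retinas. Values of each retina are therefore given for most genes described below. In bulk tissue, fewer cells of a type and less RNA per cell cannot be told apart.

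Ribosomal protein genes were expressed far above the typical retinal gene. Their mean level over the 5 retinas had a median of 164 CPM, against 19.0 CPM for all genes tested. It ran from 7.44 CPM for Rps27l to 541 CPM for Rpl3, a large subunit protein near the peptidyl transferase centre. To compare genes, levels were divided by length, as CPM per kilobase of the shortest consensus transcript. On that scale the highest small subunit genes were Rps24 at 740.6 ± 151 (SD, n = 5), Rps14 at 662 ± 259 and Rps15 at 655 ± 169. The highest large subunit genes were Rplp1, an acidic protein of the ribosomal stalk, at 682 ± 135, Rpl9 at 639 ± 206 and Rpl41, the shortest of the set, at 517 ± 106. These SDs include the movement from retina to retina that the genes shared, described below. Within a retina the order was mostly but not always the same. Rps24 was above Rps15 in all 5 retinas, but Rplp1 was above Rps24 in DMSO replicate 2 (727 against 717 CPM per kilobase). In Sorbinil replicate 1, Rps14 (1087) and, narrowly, Rpl9 (937.4) were above Rps24 (936.8).

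This order depended on which length was used. Per kilobase of transcript, the lowest small subunit genes were Rps27l at 14.1 ± 2.61, Rps15a at 23.4 ± 2.69 and Rps20 at 38.7 ± 7.12, and the lowest large subunit genes were Rpl37 at 16.3 ± 1.29, Rpl7l1 at 29.3 ± 2.62 and Rpl31 at 30.4 ± 3.66. The annotated transcripts of Rps15a (5136 bases), Rps20 (3192 bases), Rpl37 (6111 bases) and Rpl31 (3995 bases) are long for proteins of this size. Per kilobase of coding sequence these 4 genes were at 309, 346, 342 and 324 CPM, near the median of 364. The 3 paralogs Rps27l at 29.5, Rpl22l1 at 51.2 and Rpl7l1 at 52.9 CPM per coding kilobase were then the lowest of the 80. The 7 highest genes were the same on both scales, namely Rps24, Rplp1, Rps14, Rps15, Rpl9, Rps29 and Rpl41, but in another order. Per coding kilobase Rpl41 came first at 2713 CPM, followed by Rps29 at 1346, Rplp1 at 1091 and Rps24 at 889.

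The share of all counts that fell on ribosomal protein genes was 1.36%, 1.60% and 1.73% in the DMSO retinas (replicates 1, 2 and 3, in this order here and below), and 1.71% and 1.43% in the Sorbinil retinas (replicates 1 and 3). Both Sorbinil values lay within the DMSO range. When mitochondrially encoded and ribosomal RNA genes were left out of the total, Sorbinil replicate 1 (1.775%) was just above the highest DMSO retina (1.773%), and the difference between group means was 0.030 percentage points. With all genes the means were 1.56% ± 0.186 (SD, n = 3) with DMSO and 1.57% ± 0.199 (SD, n = 2) with Sorbinil, a difference of 0.0052 percentage points that was far smaller than the spread within either group. The small subunit took 42.5%, 43.6% and 43.9% of the pool in DMSO and 45.4% and 43.4% in Sorbinil, so Sorbinil replicate 1 held the highest share and Sorbinil replicate 3 lay within the DMSO range.

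No ribosomal protein gene passed the threshold between Sorbinil and DMSO. The threshold, taken from the study, was an unadjusted p of at most 0.1 with a change of at least 2-fold, and edgeR's quasi-likelihood test called 0 of 80 members against 1.71% of all genes. Without the fold limit, 0 of 80 had a p of at most 0.1, against 11.3% of all genes, and 0 had a p under 0.05, against 5.01%. With Benjamini-Hochberg adjustment 0 genes of the whole table were called. DESeq2's Wald test called 0 of 80 members past the threshold, against 248 of all genes tested. It called 0 of 80 at a p of at most 0.1, against 11.9% of all genes. The smallest p was 0.155 (Rps27l) and the smallest adjusted p was 0.758.

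The fitted changes were small and mostly above 0. In 70 of 80 genes the log2 fold change was above 0, against 49% of the 14992 genes tested, and the median was 0.14 against -0.01 for all genes. With library size alone the median was 0.012, against -0.11 for all genes, and 38 of 80 genes were below 0. The range was from -0.19 (Rpl10) to 0.49 (Rps14), with standard errors between 0.14 and 0.37. Every 95% interval held 0. In 75 of the 80 genes the interval lay wholly within a 2-fold change in either direction, against 62.6% of all genes tested. Those genes had a lower median level (19.0 CPM against 164 CPM), and no share at matched level was computed. The bounds of all 80 members ran from -0.75 to 1.41. The size and sign also rested on single retinas. Without Sorbinil replicate 1 the median was -0.16 and 70 of the 80 genes were below 0, without Sorbinil replicate 3 it was 0.38 and 1 gene was below 0, and without DMSO replicate 1 it was 0.019 and 35 genes were below 0. Without DMSO replicate 3 it was 0.24 and 4 genes were below 0.

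**Figure D1:**
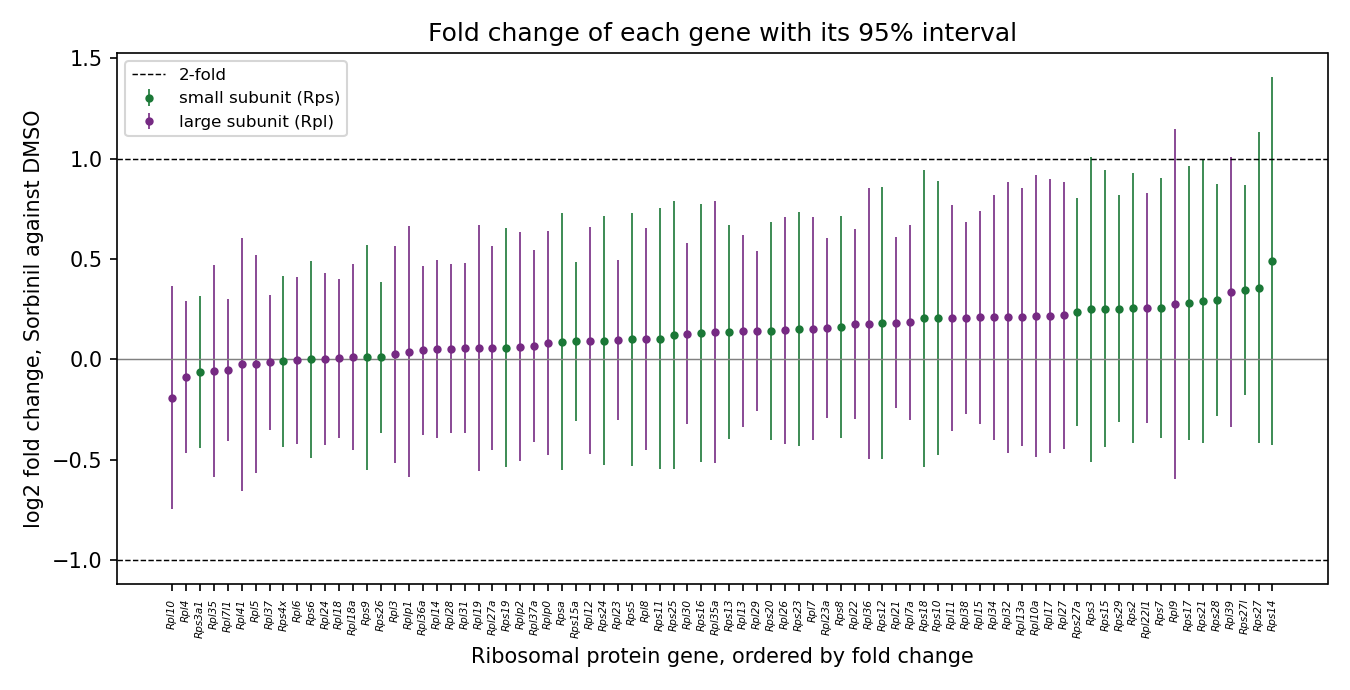
Log2 fold change of Sorbinil (2 retinas) against DMSO (3 retinas) for each of the 80 tested ribosomal protein genes, ordered by fold change, with points for the fitted value and bars for its 95% interval. Dashed lines mark 2-fold; every bar crosses 0 and 75 of 80 stay between the dashed lines.

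What did vary was the whole set together, from retina to retina. Relative to the mean of the DMSO retinas, the median ribosomal protein gene was at -0.27, 0.04 and 0.22 (log2) with DMSO, and at 0.39 and -0.17 with Sorbinil. The median over all genes tested stayed within 0.02 of 0 in every retina, but TMM scaling itself draws that median towards 0. It therefore cannot show that the other genes held still. With library size alone, the median over all genes was at 0.054, 0.0051 and -0.058 with DMSO, and at -0.25 and 0.045 with Sorbinil. The median ribosomal protein gene was then at -0.21, 0.042 and 0.16 with DMSO, and at 0.12 and -0.11 with Sorbinil. The DMSO retinas differed among themselves by more than the fitted change between groups, and the Sorbinil retinas lay on opposite sides of the DMSO mean.

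The members moved in step. DMSO replicate 3 was above the DMSO mean in 79 of 80 genes (49.9% of all genes) and DMSO replicate 1 in 1 of 80 (49.9%), with DMSO replicate 2 above it in 64 (51.2%). Sorbinil replicate 1 was above it in 79 (51.1%) and Sorbinil replicate 3 in 11 (48.7%). In 48 of 80 genes, the 5 retinas followed the same order, with DMSO replicate 1 lowest, then Sorbinil replicate 3, DMSO replicate 2, DMSO replicate 3 and Sorbinil replicate 1 highest. That order held in 5.88% of all genes tested. A further 17 genes differed from it only in the order of the 2 lowest retinas (6.12% of all genes). DMSO replicate 1 was the lowest retina in 57 of 80 genes (22.6% of all genes) and Sorbinil replicate 3 in the other 23 (21.1%). Sorbinil replicate 3 lay within the range of the DMSO retinas in 56 of the 80 genes (43.6% of all genes).

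**Figure D2:**
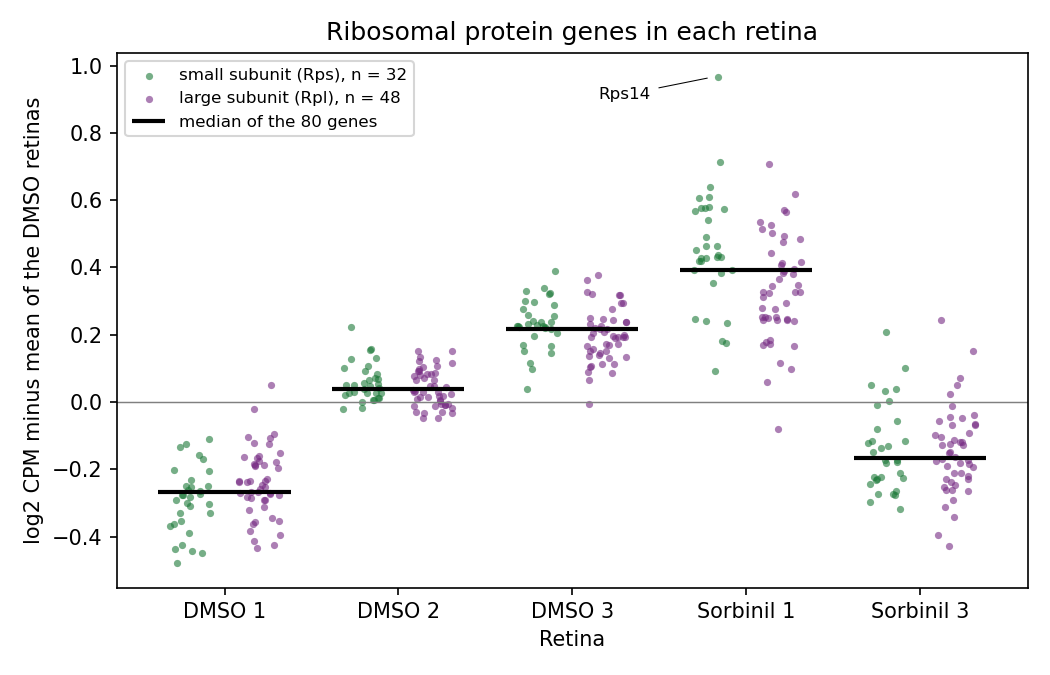
Log2 CPM minus the mean of the 3 DMSO retinas for 32 small subunit and 48 large subunit genes in each retina; points are genes and black lines are medians of the 80 genes. The medians are -0.27, 0.04, 0.22, 0.39 and -0.17 from left to right, and the DMSO medians lie further apart than the fitted median change of 0.14 between groups.

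The place of Sorbinil replicate 1 depended on the scaling. With TMM it was the highest retina in 73 of 80 genes (41.1% of all genes) and DMSO replicate 3 in 7 (10.8%). With DESeq2's size factors those counts were 72 and 8. With library size alone, Sorbinil replicate 1 was highest in 25 genes and DMSO replicate 3 in 42, the median gene was at 0.12 and 0.16 in these retinas, and the median over all genes in Sorbinil replicate 1 was itself at -0.25. The low position of DMSO replicate 1 (-0.21) and Sorbinil replicate 3 (-0.11) remained with library size alone.

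Both subunits showed the pattern. The median small subunit gene was at -0.28, 0.05 and 0.23 (log2 against the DMSO mean) in DMSO and at 0.43 and -0.17 in Sorbinil. The median large subunit gene was at -0.24, 0.03 and 0.19 in DMSO and at 0.33 and -0.16 in Sorbinil. The log2 fold change was above 0 in 30 of 32 small subunit genes (median 0.16) and in 40 of 48 large subunit genes (median 0.10). Across the 80 genes, the log2 difference in DMSO replicate 1 went with coding length at a Spearman rho of 0.41, and in DMSO replicates 2 and 3 and Sorbinil replicates 1 and 3 at -0.46, -0.21, -0.16 and -0.44. With transcript length these values were 0.42, -0.34, -0.29, -0.34 and -0.13. Length was not the only feature of this kind. With mean CPM the values were 0.17, -0.24, -0.07, 0.18 and -0.45. With the share of G and C bases in the transcript they were -0.06, 0.04, 0.03, 0.21 and -0.36. The DMSO differences sum to 0 in each gene, so a positive value in 1 DMSO retina draws the others below 0. Genes share libraries and depth in these correlations, and 1 value per gene is not a replicate.

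When each retina was scaled to its own ribosomal protein total, which asks whether any member changed against the rest of the set, 0 of 80 passed the threshold (1.17% of all genes) in edgeR's quasi-likelihood test. No member had a p of at most 0.1 (2.84% of all genes). The smallest p was 0.159, for Rps14.

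Rps14, a small subunit protein near the platform (chr18:60880152-60911630, plus strand), had the largest fold change. It was at 237, 341 and 399 CPM in DMSO and at 622 and 294 CPM in Sorbinil. Sorbinil replicate 1 was above every DMSO retina, Sorbinil replicate 3 was between the lowest 2 of them, and the groups overlapped. The log2 fold change was 0.49 ± 0.37 (SE, adjusted p = 0.758, edgeR's quasi-likelihood test), and without Sorbinil replicate 1 it was -0.14. Its range over retinas, 1.39 on the log2 scale, was the widest of the set.

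Rps27l, a paralog of Rps27 known as a p53 target (chr9:66853340-66856808, plus strand), had the smallest p and was the only member whose groups did not overlap, in 1 of 80 genes (1.25%) against 12.8% of all genes with Sorbinil above. No member had both Sorbinil retinas below DMSO (10.5% of all genes). It was at 5.50, 7.27 and 7.36 CPM in DMSO and at 9.36 and 7.69 CPM in Sorbinil, from between 409 and 581 counts per retina. The gap between the highest DMSO retina and the lower Sorbinil retina was small beside the gap between DMSO replicates 1 and 2. The log2 fold change was 0.35 ± 0.21 (SE), with an adjusted p of 0.758 in edgeR's quasi-likelihood test.

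Rps28, Rpl39 and Rps27 followed among the higher genes. Rps27, a zinc finger protein of the small subunit (chr3:90119819-90120977, minus strand), was at 98.6, 153 and 172 CPM in DMSO and at 226 and 136 CPM in Sorbinil, a log2 fold change of 0.36 ± 0.31 (SE). Rpl39, a short protein lining the exit tunnel (chrX:36345092-36349130, minus strand), was at 56.8, 82.6 and 96.3 CPM in DMSO and at 118 and 80.7 CPM in Sorbinil, a log2 fold change of 0.34 ± 0.27. Rps28 was at 73.7, 103 and 110 CPM in DMSO and at 137 and 97.4 CPM in Sorbinil, a log2 fold change of 0.30 ± 0.23. In all 3 genes Sorbinil replicate 1 was the highest retina and Sorbinil replicate 3 lay inside the DMSO range.

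The members with fold changes below 0 were fewer and smaller. Rpl4, a large subunit protein with a long extension, was at 417, 409 and 442 CPM in DMSO and at 440 and 354 CPM in Sorbinil (log2 fold change -0.09 ± 0.15, and -0.21 with library size alone, where the median of all genes was -0.11). Rps3a1 was at 221, 241 and 255 CPM in DMSO and at 254 and 203 CPM in Sorbinil (-0.06 ± 0.15, and -0.18 with library size alone). Rpl35 was at 95.1, 102 and 108 CPM in DMSO and at 120 and 75.5 CPM in Sorbinil (-0.06 ± 0.21). In each of these genes, and in Rpl7l1 (41.0, 38.3 and 39.5 CPM against 42.9 and 33.6), Sorbinil replicate 3 was the lowest retina. Rpl37 varied least of all, at 91.5, 100.3 and 108 CPM in DMSO and 107 and 91.2 CPM in Sorbinil, a range of 0.24 on the log2 scale. Over the 80 genes this range had a median of 0.67, against 0.65 over all genes tested and 0.53 over the 1183 genes with mean levels in the members' interquartile range of 113 to 257 CPM.

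Among proteins with roles of their own, the stalk proteins Rplp0, Rplp1 and Rplp2, which recruit translation factors to the ribosome, had log2 fold changes of 0.08 ± 0.23, 0.04 ± 0.25 and 0.06 ± 0.23 (SE). With library size alone all 3 were below 0 but above the median of all genes, which was -0.11. Rplp0, often used as a reference gene in quantitative PCR, was at 257, 280 and 308 CPM in DMSO and at 366 and 230 CPM in Sorbinil. Sorbinil replicate 1 was above and Sorbinil replicate 3 below every DMSO retina. Rpsa, which is also known as a laminin receptor, showed the same arrangement, at 455, 525 and 599 CPM in DMSO and at 699.7 and 419 CPM in Sorbinil. Its log2 fold change was 0.09 ± 0.26, and with library size alone it was below 0 but above the median of all genes.

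Rpl5 and Rpl11 bind the 5S ribosomal RNA, and outside the ribosome they inhibit Mdm2 and so stabilise p53. Rpl5 was at 255, 279 and 327 CPM in DMSO and at 340 and 226 CPM in Sorbinil, a log2 fold change of -0.02 ± 0.22 (SE). Rpl11 was at 111, 136 and 154 CPM in DMSO and at 186 and 124 CPM in Sorbinil, a log2 fold change of 0.21 ± 0.23. Rps6, the protein whose phosphorylation is the usual readout of mTORC1 signaling, was at 310, 336 and 378 CPM in DMSO and at 402 and 281 CPM in Sorbinil, and its fitted change of 0.00096 ± 0.20 was the nearest to 0 of the named genes. These counts measure RNA and carry no information on phosphorylation. Rps27a, made as a fusion with ubiquitin, was at 141, 180 and 218 CPM in DMSO and at 241 and 181 CPM in Sorbinil (0.24 ± 0.23).

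Fau and Rack1 are parts of the ribosome whose symbols fall outside the naming rule, and their retinas were arranged alike. Fau, which yields a small subunit protein, was at 202, 247 and 287 CPM in DMSO and at 308 and 206 CPM in Sorbinil. Rack1, a scaffold for kinases on the small subunit, was at 258, 322 and 373 CPM in DMSO and at 508 and 258 CPM in Sorbinil. In both, Sorbinil replicate 1 was highest and Sorbinil replicate 3 lay inside the DMSO range, and the log2 fold changes were 0.07 ± 0.24 and 0.27 ± 0.32 (SE), with no p of at most 0.1 in edgeR's quasi-likelihood test.

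Several ribosomal proteins have a paralog made from a second gene, and the Rps27 and Rps27l pair shows how closely such genes resemble each other. The first 90 bases of both coding sequences, read from the GRCm39 transcripts, are shown 5′ to 3′ with differing bases in capitals.
Rps27: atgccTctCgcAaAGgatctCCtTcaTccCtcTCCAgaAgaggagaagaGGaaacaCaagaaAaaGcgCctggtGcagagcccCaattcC
Rps27l: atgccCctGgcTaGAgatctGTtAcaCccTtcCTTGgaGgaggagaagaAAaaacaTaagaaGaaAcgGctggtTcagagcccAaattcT
They differed at 24 of these 90 bases and at 60 of 252 over the whole coding sequence, and the longest run of identical bases was 11, so reads of the coding region tell the pair apart.

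The share of the pair that a paralog took varied among the DMSO retinas by more than the group means differed. Rps27l made up 5.29%, 4.53% and 4.11% of the counts of Rps27 and Rps27l in DMSO and 3.98% and 5.33% in Sorbinil. Rpl22l1, which can take the place of Rpl22 in the ribosome, took 15.02%, 18.4% and 18.2% of its pair in DMSO and 16.6% and 20.2% in Sorbinil. Rpl7l1, a protein of ribosome assembly, took 13.3%, 10.6% and 9.59% of its pair with Rpl7 in DMSO and 9.23% and 10.3% in Sorbinil.

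In level, Rpl22l1 was at 12.8, 18.1 and 21.3 CPM in DMSO and at 21.3 and 20.1 CPM in Sorbinil, and its parent Rpl22 was at 72.2, 80.3 and 95.5 CPM in DMSO and at 108 and 79.4 CPM in Sorbinil. Rpl7 was at 268, 322 and 372 CPM in DMSO and at 422 and 292 CPM in Sorbinil. The retinas of the groups overlapped in the share of each of these 3 pairs. Group means were 4.64% ± 0.60 (SD, n = 3) and 4.66% ± 0.95 (SD, n = 2) for Rps27l, 17.2% ± 1.90 and 18.4% ± 2.60 for Rpl22l1, and 11.2% ± 1.90 and 9.78% ± 0.78 for Rpl7l1. Rpl36al, a gene whose symbol the rule does not take, was between 34.5% and 38.5% of its pair with Rpl36a, which shares 87.7% of the coding bases. Rpl3l was at most 0.0198% of its pair and Rpl39l at most 0.164%.

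Rpl10, the member with the lowest fold change, is uncertain for a reason of sequence. The table holds a row for the pseudogene Rpl10-ps3, and the 642 coding bases of Rpl10 occurred in it with 642 identical, so reads of the coding region cannot be told apart. Rpl10-ps3 took 67.4%, 63.5% and 52.5% of the counts of both rows in DMSO and 60.0% and 63.4% in Sorbinil. Rpl10 itself was at 45.8, 58.3 and 75.4 CPM in DMSO and at 55.4 and 49.4 CPM in Sorbinil, the only member in which Sorbinil replicate 1 fell below the DMSO mean.

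Summing both rows gave 141, 160 and 159 CPM in DMSO and 139 and 135 CPM in Sorbinil. Both Sorbinil retinas then lay below all 3 DMSO retinas by a small margin, as in 10.5% of all genes tested. The log2 fold change was -0.16 ± 0.12 (SE, adjusted p = 0.758, edgeR's quasi-likelihood test). The 7 named pseudogene rows together held between 4570 and 9300 counts per retina, and with them the ribosomal protein share was between 1.37% and 1.74%.

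**Figure D3:**
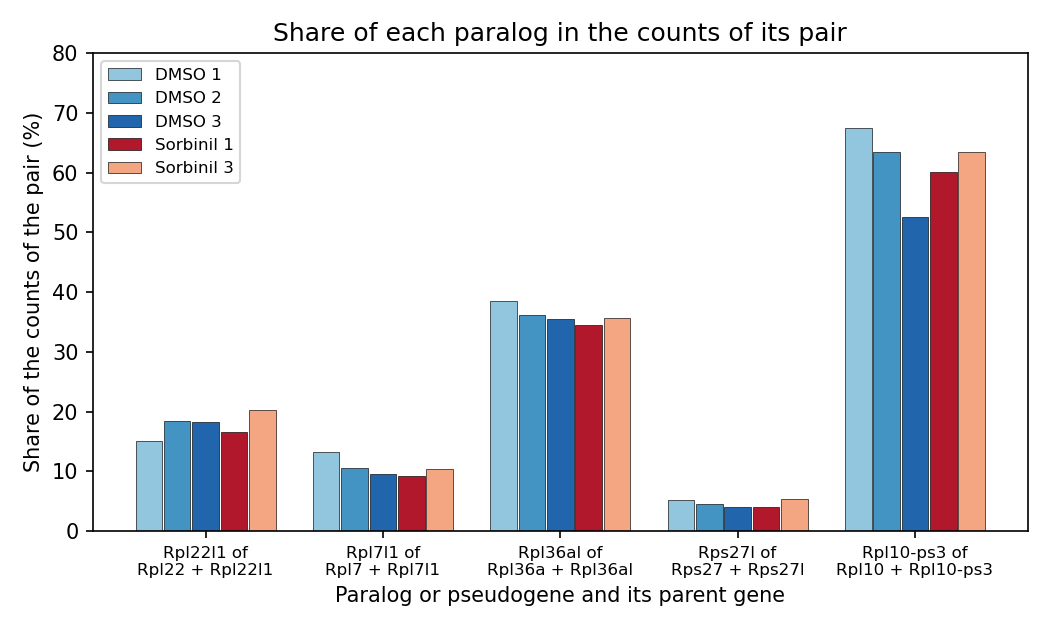
Share of each paralog or pseudogene in the counts of its pair, in percent, with 1 bar per retina. Rps27l stays between 3.98% and 5.33% and Rpl22l1 between 15.02% and 20.2%, while the Rpl10-ps3 row holds more than its parent in every retina (52.5% to 67.4%).

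Genes that act with the ribosome were compared as lists, by counts and medians alone. The 78 mitochondrial ribosomal protein genes, which serve a separate ribosome, showed a median change of 0.03 (log2), and their median stood at -0.08, 0.01 and 0.08 in DMSO and at 0.18 and -0.12 in Sorbinil. The order of the retinas was close to that of the cytosolic genes, with smaller distances. Of these 78, 2 had a p of at most 0.1 and a lower level with Sorbinil (4.33% of all genes), and 0 a higher one (6.98%). Mrpl48 was at 43.4, 44.0 and 42.2 CPM in DMSO and at 34.4 and 35.3 CPM in Sorbinil (adjusted p = 0.758, edgeR's quasi-likelihood test). Mrpl4 was at 20.7, 19.4 and 18.4 CPM in DMSO and at 15.9 and 16.5 CPM in Sorbinil. In both genes the groups did not overlap, with Sorbinil below as in 10.5% of all genes tested. Both were named for their small p, and neither passed the adjustment.

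The 26 other TOP messenger RNAs showed a median change of 0.05 (log2), with retina medians of -0.12, -0.03 and 0.14 in DMSO and 0.22 and -0.16 in Sorbinil, and 0 of 26 had a p of at most 0.1 (11.3% of all genes). In Sorbinil replicate 1, 20 of the 26 were above the DMSO mean, and in Sorbinil replicate 3, 5 were. Eef1a1, the elongation factor that brings transfer RNA to the ribosome, was at 2785, 3114 and 3460 CPM in DMSO and at 3603 and 2389 CPM in Sorbinil. Eef2, the translocation factor, was at 1838, 1803 and 1968 CPM in DMSO and at 2279 and 1772 CPM in Sorbinil. Tpt1 was at 613, 758 and 809 CPM in DMSO and at 1077 and 647 CPM in Sorbinil. Sorbinil replicate 1 was the highest retina in these 3 genes, but not in all of the list. Among listed genes with the smallest p, Gnb2 was at 84.5, 75.5 and 75.4 CPM in DMSO and at 51.1 and 72.9 CPM in Sorbinil, with Sorbinil replicate 1 lowest. Nap1l1 was at 211, 227 and 261 CPM in DMSO and at 321 and 252 CPM in Sorbinil. Whether each gene of this list, Gnb2 included, holds a TOP tract was not checked.

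Genes that build or serve the ribosome were lists with members in both directions. The 50 genes of ribosome biogenesis had retina medians between -0.05 and 0.05 and log2 fold changes from -0.29 (Rrp1) to 0.32 (Riok1), and 0 of 50 had a p of at most 0.1 (11.3% of all genes). The 30 cytosolic translation factors showed a median change of 0.04 (log2), from -0.19 (Eif3c) to 0.23 (Eif4g3), with retina medians of -0.05, -0.03 and 0.06 in DMSO and 0.11 and -0.06 in Sorbinil, and 0 of 30 had a p of at most 0.1 (11.3%). Of 15 tested genes of RNA polymerase I, which transcribes ribosomal RNA, 3 had a p of at most 0.1 and a higher level with Sorbinil (6.98% of all genes) and 0 a lower one.

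Those 3 were the subunits Polr1f and Polr1a and the termination factor Ttf1. Polr1f was at 28.2, 30.0 and 31.7 CPM in DMSO and at 39.4 and 36.5 CPM in Sorbinil (adjusted p = 0.758, edgeR's quasi-likelihood test). Ttf1 was at 9.75, 10.2 and 10.1 CPM in DMSO and at 13.1 and 11.7 CPM in Sorbinil. Polr1a was at 35.7, 36.0 and 34.9 CPM in DMSO and at 45.0 and 38.7 CPM in Sorbinil. Both Sorbinil retinas lay above all DMSO retinas in the 3 genes, as in 12.8% of all genes tested. The 3 genes were named for their small p, and none was called after adjustment.

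Of 21 genes of mTORC1 and TOP control, 1 was higher (6.98% of all genes) and 1 lower (4.33%) at a p of at most 0.1, shares near those of all genes, and the log2 fold changes ran from -0.74 to 0.87. Larp4, a protein that binds and stabilises ribosomal protein messenger RNAs, was at 109, 115 and 120 CPM in DMSO and at 174 and 126 CPM in Sorbinil (adjusted p = 0.758, edgeR's quasi-likelihood test). Rptor, the mTORC1 scaffold, was at 105, 109 and 104 CPM in DMSO and at 87.8 and 94.1 CPM in Sorbinil. Mtor itself was at 131, 131 and 133 CPM in DMSO and at 141 and 137 CPM in Sorbinil, with a log2 fold change of 0.08 ± 0.11 (SE). Larp1 was at 97.4, 84.4 and 87.7 CPM in DMSO and at 79.8 and 93.7 CPM in Sorbinil. The kinase Rps6kb1 was at 23.7, 27.8 and 31.7 CPM in DMSO and at 39.7 and 28.6 CPM in Sorbinil.

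Cell type markers were set beside the ribosomal protein genes because retinas differed in them. The 15 rod markers had medians of -0.15, 0.01 and 0.12 (log2 against the DMSO mean) in DMSO and 0.56 and -0.32 in Sorbinil, and the 9 cone markers had -0.21, -0.02 and 0.23 in DMSO and 0.46 and -0.20 in Sorbinil. Both photoreceptor lists were highest in Sorbinil replicate 1, next in DMSO replicate 3, and low in DMSO replicate 1 and Sorbinil replicate 3, which is close to the arrangement of the ribosomal protein genes. All 15 rod markers were above the DMSO mean in Sorbinil replicate 1 and 1 of 15 in Sorbinil replicate 3.

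Markers of other cell types went the other way in Sorbinil replicate 1. The medians there were -1.14 for bipolar cells, -1.39 for amacrine cells, -1.44 for Müller glia and astrocytes, -1.26 for retinal ganglion cells, -0.90 for microglia and macrophages and -1.79 for endothelium and pericytes. In Sorbinil replicate 3 the same lists stood between -0.47 and 0.11. Mitochondrially encoded transcripts took 1.94% to 2.66% of counts in DMSO and 3.70% and 4.05% in Sorbinil. The part of cell type markers, lens RNA or mitochondrial transcripts in the levels of ribosomal protein genes was not tested.

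**Figure D4:**
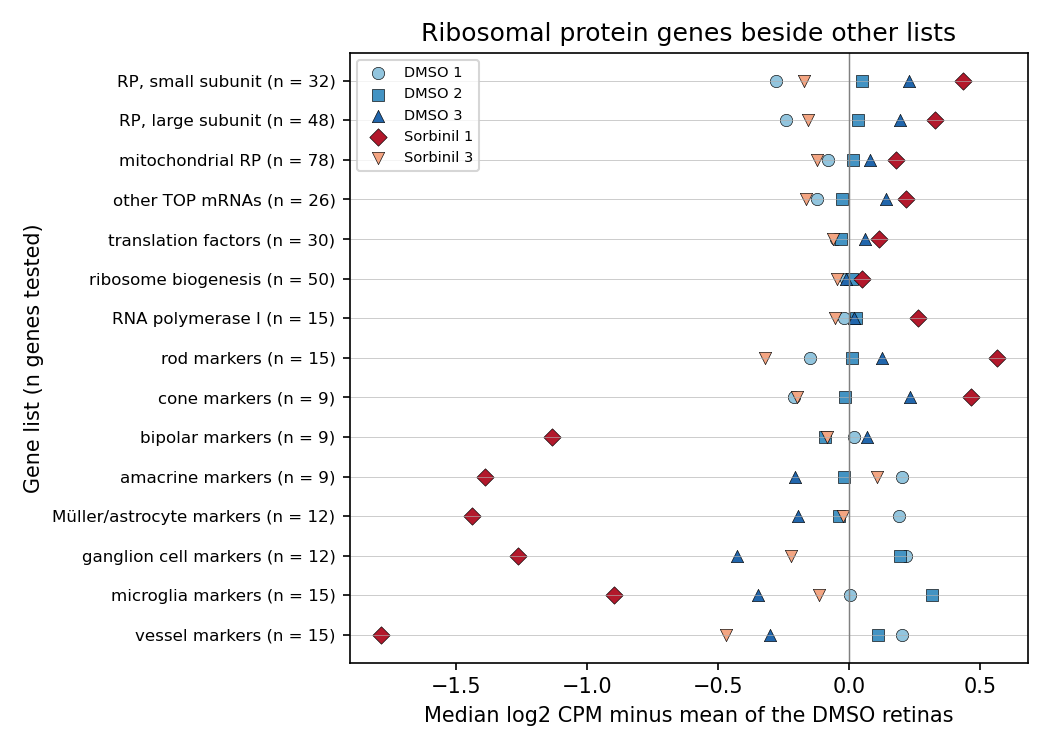
Median log2 CPM minus the DMSO mean for 15 gene lists, with 1 marker per retina; n is the number of genes tested. Ribosomal protein lists (RP) and photoreceptor lists are highest in Sorbinil replicate 1, where the lists of all other retinal cell types shown lie below -0.85.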

How the data were processed

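RNA sequencing of 5 injured mouse retinas was analysed, 3 given DMSO and 2 given Sorbinil. The authors trimmed reads, mapped them to GRCm39 in CLC Genomics Workbench with default settings, and deposited raw counts per gene. The annotation release is not given in the sources used here. Sorbinil replicate 2, left out by the authors after principal component analysis, was not analysed here. Columns were matched to samples by name, and 0 value columns were left out. Nothing in the labels ties replicates to separate cohorts, so p-values measure the spread between these samples.

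Counts were filtered (filterByExpr, minimum count 10), scaled by TMM and tested in R 4.3.3 with edgeR 4.0.16 (glmQLFit and glmQLFTest), with Benjamini-Hochberg adjustment over all 14992 genes tested. Log2 CPM used a prior count of 2. The procedure was tested on simulated data with 200 changed genes. The simulated spread was the same in every retina, so it did not cover a retina that stands apart like Sorbinil replicate 1. No pair of retinas was a repeat of 1 library, since a chi-square test of their counts gave at least 25.5 times its degrees of freedom. DESeq2 1.42.0, other scalings, filters and tests, and leaving out each retina were tried. Intervals cover 95%, and reads carry no molecular identifiers, so limits from counts cover counting error only.

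The members and lists were chosen with earlier results of these data known. Genes named were the 3 highest and 3 lowest of each subunit per length, the 5 with the smallest p in each direction, those with the widest and narrowest range, the stalk and 5S proteins, Rpsa, Rps6, Rps27a, Fau and Rack1, paralogs with their parents, and members of related lists with the smallest p. 1 gene that these criteria take is not reported here. Promoters were taken from RefSeq (GRCm38.p6), gene positions and lengths from GENCODE vM39 (GRCm39). Coding sequences were aligned with Biopython 1.88.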

Additional observations from a re-analysis of the deposited data

How the results depend on the processing

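No ribosomal protein gene passed the threshold under any of the alternatives run. The median log2 fold change of the members ran from -0.16 (without Sorbinil replicate 1) to 0.38 (without Sorbinil replicate 3) when 1 retina was left out, and was 0.019 without DMSO replicate 1. With library size alone it was 0.012, against -0.11 for all genes tested. At a p of at most 0.1 with no fold limit, 7 of 80 members were called without Sorbinil replicate 1 (14.8% of all genes) and 44 of 80 without Sorbinil replicate 3 (58.5% of all genes), where 1 Sorbinil retina was assumed to vary like the other group. With library size alone 2 of 80 were called (10.7%), Rpl4 at -0.21 and Rps3a1 at -0.18. The difference in the share of counts, Sorbinil minus DMSO, ran from -0.14 to 0.15 percentage points over the retinas left out. Whether the replicate numbers pair the samples could not be decided, since only 2 numbers are shared. The deviations of same-numbered retinas correlated at -0.243 and -0.125. The deviations of the 2 Sorbinil retinas mirror each other, so these correlations cannot show whether samples were paired. With a replicate block the median was 0.14, and 0 of 80 members had a p of at most 0.1 (3.42% of all genes).

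Single genes that changed sign had fitted changes near 0 or rested on 1 retina. Rps6 (0.00096) was -0.0071 with at least 10 counts in every retina, -0.0045 with DESeq2 size factors and with DESeq2's Wald test, -0.0084 with upper quartile scaling, -0.13 with library size alone and with scaling to the ribosomal protein pool, and -0.026 with the replicate block. With library size alone and with pool scaling, respectively, Rplp0 was -0.056 and -0.073, Rplp1 -0.093 and -0.10, Rplp2 -0.066 and -0.073, and Rpsa -0.049 and -0.063. The median of all genes was -0.11 under both of these scalings. Over the retinas left out, the log2 fold change ran from -0.14 to 0.93 for Rps14, -0.037 to 0.68 for Rps27, -0.35 to 0.0071 for Rpl10, -0.24 to 0.061 for Rpl4, -0.22 to 0.091 for Rps3a1, -0.23 to 0.12 for Rpl7l1, -0.42 to 0.24 for Rpl35, -0.28 to 0.38 for Rplp0, -0.31 to 0.33 for Rplp1, -0.26 to 0.34 for Rplp2, -0.32 to 0.41 for Rpsa, -0.34 to 0.24 for Rpl5, -0.10 to 0.47 for Rpl11, -0.27 to 0.24 for Rps6, -0.046 to 0.38 for Rpl22 and -0.13 to 0.40 for Rpl7. The cause was not tested. Rps27l (0.21 to 0.48), Rps28 (0.040 to 0.52), Rpl39 (0.051 to 0.59), Rps27a (0.027 to 0.43) and Rpl22l1 (0.076 to 0.42) stayed above 0 under every alternative run, but the lowest values, without Sorbinil replicate 1 or, for Rpl22l1, DMSO replicate 1, were under the reported ones by over 1.5 times. Summing Rpl10 with Rpl10-ps3, an alternative chosen after seeing the data, kept its direction.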
